A study of Mus musculus with 8 samples.

Results

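Mast cell proteases and receptors are the 10 genes Tpsb2, Tpsab1, Cma1, Mcpt4, Cpa3, Kit, Ms4a2, Fcer1a, Hdc and Gata2, chosen by symbol, and all 10 were found among the 32098 genes of the expression table. They were followed in 8 whole tumours grown in mice from 4T1, a mouse mammary carcinoma cell line, with the genotype given as WT. In 4 tumours radiation had been combined with an immune checkpoint inhibitor (RI, replicates 1, 2, 4 and 5), and in 4 the inhibitor had been given alone (ICI, replicates 1, 2, 3 and 4). All 8 tumours therefore had the inhibitor, and no tumour without it was analysed here. Which inhibitor and which radiation dose were used, when tumours were taken and how old the mice were is not in the labels. Nor do they state whether tumours were from separate animals, or whether an RI tumour was itself irradiated, so each p-value covers only the variation among these 8 samples, part of which may be technical. The design text speaks of 3 replicates a group, whereas 4 a group were listed, and all were used.

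Mast cells are tissue-resident granulocytes of connective tissue and mucosa that store histamine, heparin and large amounts of a few proteases in their granules. They depend on the receptor tyrosine kinase KIT and its ligand stem cell factor, and they release their granules when antigen crosslinks IgE held on the high-affinity IgE receptor. Connective tissue mast cells of the mouse are known for tryptases, chymases and carboxypeptidase, and mucosal mast cells for Mcpt1 and Mcpt2. In tumours they lie mostly in the surrounding connective tissue and along vessels.

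The depth recovered from the expression values was 27013000 to 42622700 fragments in the RI tumours and 32942200 to 42551500 in the ICI tumours. Values are FPKM, fragments scaled to gene length and library size. Each library's total sets the precision of its counts, and these limits cover counting error only. Of the 10 members 7 reached 1 FPKM in at least 4 tumours and were tested among 13439 genes with limma on log2(FPKM + 1), a scale that understates the change of low genes. Ms4a2, Fcer1a and Gata2 did not reach that level. A gene was called changed at a Benjamini-Hochberg adjusted p under 0.05, and every member was also compared by a two-sided exact permutation test over 70 divisions of the tumours, whose smallest possible p is 0.0286. The libraries ICI 1 and RI 4 were unlike the rest of their groups. For 12 neutrophil genes ICI 1 summed to 22600 FPKM and the remaining ICI tumours to 215 to 678 FPKM. RI 4 had a summed FPKM over all genes of 717092, where the remaining RI tumours had 358243 to 367797.

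The proteases were higher in RI tumours. Tpsb2, Cma1 and Cpa3 rose, with group means 7.82, 7.62 and 4.84 times those of ICI tumours, and Tpsab1 and Mcpt4 had higher means that did not pass. The 5 proteases summed to 38.1 ± 24.6 FPKM in RI and 6.7 ± 7.32 FPKM in ICI tumours (SD, n = 4 each), a ratio of 5.7. In bulk tissue more mast cells and more protease RNA per mast cell cannot be told apart. Of the 7 members tested 3 were called higher in RI and 0 lower, where 11.1% of all genes tested were called higher and 6.6% lower. The 0 also stood in every other setting tried, and 1 member, Hdc, had a lower mean in RI at an unadjusted p under 0.05. The 5 proteases reached 1 FPKM in all 4 RI tumours, which alone met the limit on low values, so the count is a description and no support.

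Tpsb2 encodes a tryptase, a trypsin-like serine protease stored with heparin (chr17:25366305-25369098, GRCm38, plus strand, ENSMUSG00000033825). It had 7.27, 20, 5.6 and 7.08 FPKM in RI 1, 2, 4 and 5, against 0, 1.91, 3.18 and 0.0147 FPKM in ICI 1, 2, 3 and 4. All RI tumours lay above all ICI tumours, with RI 2 highest, and ICI 1 and ICI 4 held almost no tryptase RNA. These values rested on 313, 1024, 325 and 481 fragments in RI 1, 2, 4 and 5 and on 0, 123, 186 and 1 in ICI 1, 2, 3 and 4, and the 0 in ICI 1 allows up to 0.0571 FPKM (3 fragments). The log2 difference was 2.39 with a standard error of 0.55 (limma, adjusted p = 0.0254; exact permutation p = 0.0286).

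Tpsab1 encodes the neighbouring tryptase (chr17:25343245-25345562, minus strand, ENSMUSG00000024173) and had the highest level per length of the members in each RI tumour. It had 9.07, 25.0, 8.07 and 9.09 FPKM in RI 1, 2, 4 and 5, against 0, 5.58, 5.62 and 0.157 FPKM in ICI 1, 2, 3 and 4. The groups did not overlap here either, and ICI 2 and ICI 3 came closer to the RI tumours than for Tpsb2. Its log2 difference was 2.22 with a standard error of 0.71, which did not pass in limma (adjusted p = 0.0636), with an exact permutation p of 0.0286.

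Cma1 encodes a chymase, a chymotrypsin-like protease of connective tissue mast cells (chr14:55941451-55944675, minus strand, ENSMUSG00000022225). It had 3.74, 13.1, 3.25 and 4.03 FPKM in RI 1, 2, 4 and 5, against 0.223, 1.02, 1.92 and 0 FPKM in ICI 1, 2, 3 and 4. RI 2 again stood above the other RI tumours, and the groups did not overlap. RI exceeded ICI by 1.91 on the log2 scale with a standard error of 0.45 (limma, adjusted p = 0.0263; exact permutation p = 0.0286).

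Mcpt4, a second chymase gene of the same chromosome (chr14:56059629-56062313, minus strand, ENSMUSG00000061068), had 7.52, 10.1, 2.51 and 1.06 FPKM in RI 1, 2, 4 and 5, against 0, 0.962, 2.8 and 0.0636 FPKM in ICI 1, 2, 3 and 4. The groups overlapped, since ICI 3 lay above RI 4 and RI 5. RI exceeded ICI by 1.61 ± 0.61 (SE) on the log2 scale, which did not pass in limma (adjusted p = 0.0992), and the exact permutation p was 0.114.

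Cpa3 encodes the mast cell carboxypeptidase, which trims residues from the end of peptides (chr3:20215620-20242181, minus strand, ENSMUSG00000001865). It had 3.98, 6.35, 3.57 and 2.2 FPKM in RI 1, 2, 4 and 5, against 0.68, 1.03, 1.6 and 0.0155 FPKM in ICI 1, 2, 3 and 4. The groups did not overlap, and Cpa3 had the smallest SD of the proteases in RI tumours (1.73 FPKM). RI exceeded ICI by 1.47 on the log2 scale with a standard error of 0.33 (limma, adjusted p = 0.0209; exact permutation p = 0.0286). In ICI 1, where both tryptases were at 0 fragments, Cpa3 had 34 fragments and Cma1 8. Groups that did not overlap with RI above were seen for 4 of the 7 members tested and for 16.7% of all genes tested.

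**Figure D1:**
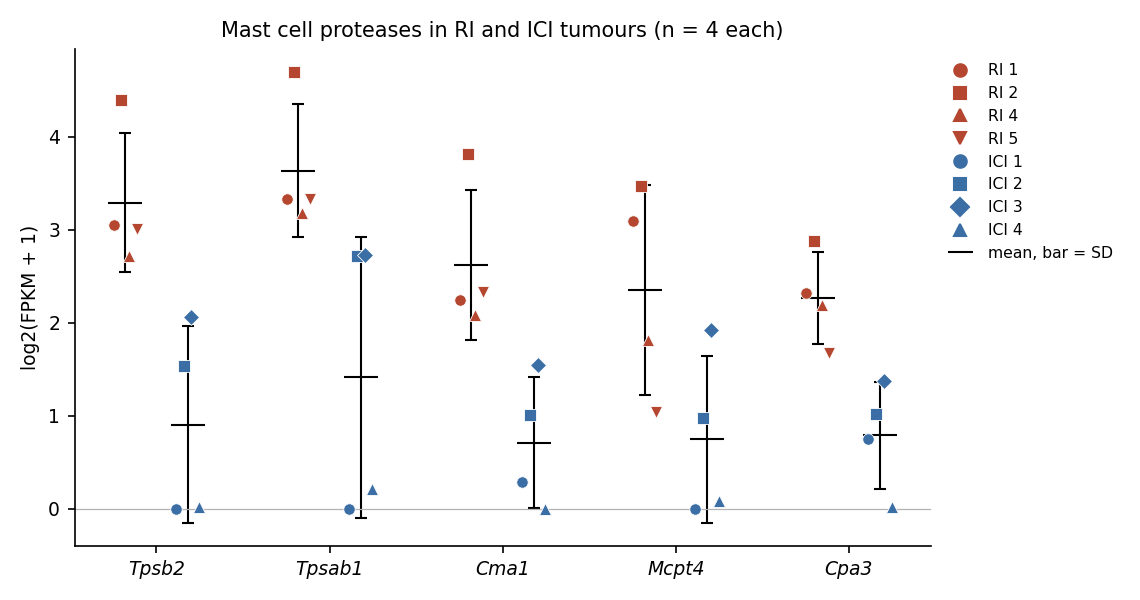
Level of each protease on the log2(FPKM + 1) axis, 1 point per tumour with RI left of ICI, the bar being the mean and its whiskers the SD (n = 4 each). For Tpsb2 the RI tumours sit between 5.6 and 20 FPKM and the ICI tumours between 0 and 3.18 FPKM, and ICI 1 and ICI 4 lie at the bottom for every protease.

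The calls depended on single tumours. Without ICI 4, 0 of the members were called, where 1.81% of all genes tested were called higher, and without RI 1 it was again 0, where 4.15% were. Without RI 2 only Cma1 was called (3.04% of all genes) and without RI 5 only Cpa3 (4.77%). Without ICI 1 the calls were Tpsb2 and Cpa3 (11.7%). Without ICI 3 they were the 3 genes and Tpsab1 (10.7%), and without ICI 2 (8.33%) or RI 4 (8.85%) the 3 genes. The adjusted p in limma stayed at most 0.0745 for Tpsb2, 0.0766 for Cma1 and 0.0562 for Cpa3 with any 1 tumour left out, and all 5 proteases were higher in RI in each of these fits. Without both ICI 1 and RI 4 the 3 calls were Tpsb2, Cma1 and Cpa3, with log2 differences of 2.28, 1.94 and 1.48 (15.2% of all genes called higher).

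**Figure D2:**
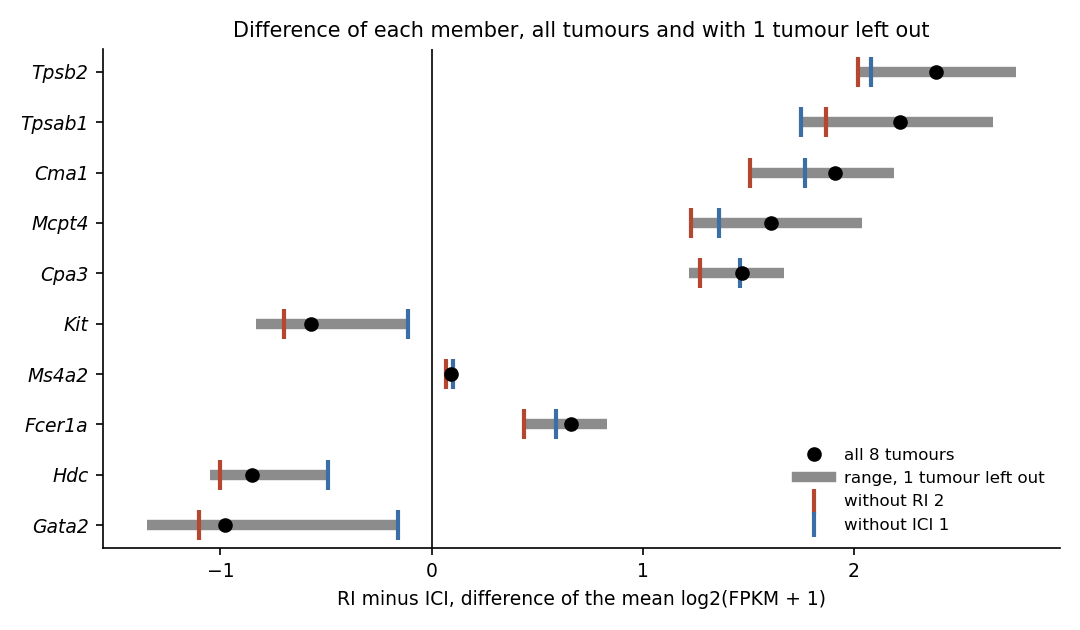
Difference of the mean log2(FPKM + 1), RI minus ICI, for each member (black points, all 8 tumours), with the grey bar spanning the 8 values obtained by leaving out 1 tumour and ticks for the values without RI 2 and without ICI 1. The proteases stay to the right of 0 (Tpsb2 from 2.02 to 2.77), while Gata2 moves to −0.16 and Kit to −0.11 without ICI 1.

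The proteases varied together between tumours. Over the 8 tumours Pearson's r of log2(FPKM + 1) lay between 0.86 and 0.99 for the 10 pairs of proteases, as a description of libraries that also share treatment and depth. Their summed level was 31.6, 74.6, 23.0 and 23.4 FPKM in RI 1, 2, 4 and 5, against 0.903, 10.5, 15.1 and 0.251 FPKM in ICI 1, 2, 3 and 4. RI 2 held 2.36 times the sum of the next RI tumour. Their proportions were less alike. Per length, Mcpt4 stood to Cma1 as 2.01, 0.768, 0.77 and 0.263 in RI 1, 2, 4 and 5 and as 0.94 and 1.46 in ICI 2 and ICI 3, so RI 1 held most Mcpt4 and RI 5 least for its Cma1. The ratio of Tpsab1 to Tpsb2 was 1.25 to 1.44 in the RI tumours and 2.91 and 1.77 in ICI 2 and ICI 3. ICI 1 and ICI 4 had fewer than 5 fragments of at least 1 gene of each of these pairs and were left out of the ratios.

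Sequence shared between neighbouring proteases bears on how firmly each value can be read. Transcripts of Tpsb2 and Tpsab1 were 76.1% identical over 830 aligned positions, with a longest identical run of 39 bases, and those of Cma1 and Mcpt4 68.3% identical over 682 positions. Mcpt4 and the mucosal protease gene Mcpt1 were 82.5% identical over 998 positions. The sources used here do not give how fragments matching more than 1 gene were counted, so the split within these pairs is less certain than their sum. No exon of another annotated gene overlapped an exon of a member in GENCODE M21, on either strand.

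Promoters of 3 of these proteases are shown, with 1 string marked because GATA2, which acts in mast cell and basophil development, binds GATA motifs. Gata2 RNA itself did not follow these genes. Over the 8 tumours its Pearson's r was −0.49 with Cma1, −0.51 with Mcpt4 and −0.42 with Cpa3, as a description in which ICI 1 weighs heavily. Control by GATA2 was not tested. Promoter sequences from RefSeq (GRCm38.p6, 250 bases before to 50 bases after a start) were found for 8 of the 10 members, in 10 windows. Capitals mark GATAA or its reverse complement TTATC. The first base of the match lies 194 bases before the start for Cma1 (chr14:55944626-55944925, minus strand), 102 for Mcpt4 (chr14:56062261-56062560, minus strand) and 45 for Cpa3 (chr3:20242132-20242431, minus strand). The promoter of Hdc (chr2:126618629-126618928, minus strand), a member whose lower mean in RI did not pass, is shown beside them and has no match to these strings. Other GATA strings were not searched. GATAG or its reverse complement CTATC stands in the windows of Hdc and Cma1.
Cma1: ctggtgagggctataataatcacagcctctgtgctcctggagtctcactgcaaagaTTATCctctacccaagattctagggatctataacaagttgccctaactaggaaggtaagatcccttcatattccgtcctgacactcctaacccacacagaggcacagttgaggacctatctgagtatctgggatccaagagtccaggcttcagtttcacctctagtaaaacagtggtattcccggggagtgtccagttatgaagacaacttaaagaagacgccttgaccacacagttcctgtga
Mcpt4: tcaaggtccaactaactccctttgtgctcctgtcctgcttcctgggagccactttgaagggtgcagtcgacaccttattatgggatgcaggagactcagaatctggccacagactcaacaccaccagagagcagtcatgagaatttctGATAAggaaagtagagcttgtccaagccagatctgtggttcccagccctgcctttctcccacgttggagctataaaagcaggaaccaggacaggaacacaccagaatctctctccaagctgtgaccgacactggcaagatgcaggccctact
Cpa3: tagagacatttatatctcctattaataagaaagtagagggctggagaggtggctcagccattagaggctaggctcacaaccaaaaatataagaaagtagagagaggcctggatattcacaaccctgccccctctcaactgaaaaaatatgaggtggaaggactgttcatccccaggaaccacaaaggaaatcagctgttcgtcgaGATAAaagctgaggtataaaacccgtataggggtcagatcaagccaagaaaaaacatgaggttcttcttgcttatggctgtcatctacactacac
Hdc: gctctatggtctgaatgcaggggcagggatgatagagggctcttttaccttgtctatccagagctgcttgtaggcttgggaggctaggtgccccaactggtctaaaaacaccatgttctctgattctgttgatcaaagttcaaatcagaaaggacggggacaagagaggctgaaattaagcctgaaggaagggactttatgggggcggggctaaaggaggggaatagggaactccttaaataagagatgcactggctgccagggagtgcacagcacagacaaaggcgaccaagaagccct
Each of the 3 protease windows held 1 match on either strand, as did Fcer1a, and Ms4a2 held 3, while the windows of Kit, Hdc and Gata2 held 0. The motif was present in 25.4% of all 32851 promoter windows of the same length. CATGTG or CACATG, letters bound by MITF-type factors, was found in 1 member, Fcer1a, and in 14.2% of all windows. A match is a string of letters in this window and was not tested for binding.

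Fcer1a and Ms4a2, the chains of the high-affinity IgE receptor among the members, were low in all tumours. Fcer1a, the alpha chain that binds IgE (chr1:173221284-173227214, minus strand, ENSMUSG00000005339), had 0.631, 2.18, 0.413 and 1.15 FPKM in RI 1, 2, 4 and 5, against 0.0913, 0.422, 0.628 and 0 FPKM in ICI 1, 2, 3 and 4. RI 2 was again highest and ICI 4 lowest, and the groups overlapped. The log2 difference was 0.66 with an exact permutation p of 0.114, on 151 fragments in RI and 43 in ICI tumours. Ms4a2, the beta chain that amplifies the signal (chr19:11615523-11623719, minus strand, ENSMUSG00000024680), had 0.05 to 0.177 FPKM in RI and 0.00835 to 0.0872 FPKM in ICI tumours. It rested on 47 fragments in RI and 23 in ICI tumours. The groups overlapped, and no difference was detected (log2 difference 0.09, exact permutation p = 0.114). Pearson's r with the 5 proteases over the 8 tumours ran from 0.76 to 0.94 for Fcer1a and from 0.59 to 0.82 for Ms4a2, as a description.

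Kit, Gata2 and Hdc did not follow the proteases. Their means were lower in RI than in ICI tumours, none passed, and the highest value of each was in ICI 1, the tumour in which both tryptases were at 0. Kit encodes the receptor for stem cell factor, which is also found on blood progenitors and melanocytes (chr5:75574916-75656722, plus strand, ENSMUSG00000005672). It had 1.12, 1.62, 0.938 and 0.563 FPKM in RI 1, 2, 4 and 5, against 6.92, 0.81, 0.77 and 2.25 FPKM in ICI 1, 2, 3 and 4. ICI 2 and ICI 3 lay within the range of the RI tumours, and the 2 high tumours were those with the least protease RNA. For Kit the log2 difference was −0.57 with a standard error of 0.45 (limma, adjusted p = 0.385; exact permutation p = 0.371).

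Gata2 encodes a zinc finger transcription factor of mast cells, basophils, blood progenitors and endothelium (chr6:88193891-88207032, plus strand, ENSMUSG00000015053). It had 0.652, 1.01, 0.26 and 0.465 FPKM in RI 1, 2, 4 and 5, against 15.9, 0.469, 0.444 and 1.59 FPKM in ICI 1, 2, 3 and 4. ICI 1 set the ICI mean, with 2831 of the 3386 fragments of that group. For Gata2 it was −0.98 on the log2 scale (exact permutation p = 0.286) and −0.16 without ICI 1 (exact permutation p = 0.6).

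Hdc encodes histidine decarboxylase, which makes histamine in mast cells and basophils and is also used by immature neutrophils of the mouse (chr2:126593667-126619299, minus strand, ENSMUSG00000027360). It had 1.16, 2.83, 1.34 and 2.14 FPKM in RI 1, 2, 4 and 5, against 9.67, 3.25, 3.25 and 2.31 FPKM in ICI 1, 2, 3 and 4. The groups overlapped only in that RI 2 lay above ICI 4. For Hdc it was −0.85 on the log2 scale with a standard error of 0.36 (limma, adjusted p = 0.121; exact permutation p = 0.0571), and −0.49 without ICI 1. Over the 8 tumours Pearson's r was 0.76 to 0.97 among Kit, Gata2 and Hdc, and −0.71 to −0.4 for the 15 pairs of one of them with a protease, as a description in which ICI 1 weighs heavily.

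**Figure D3:**
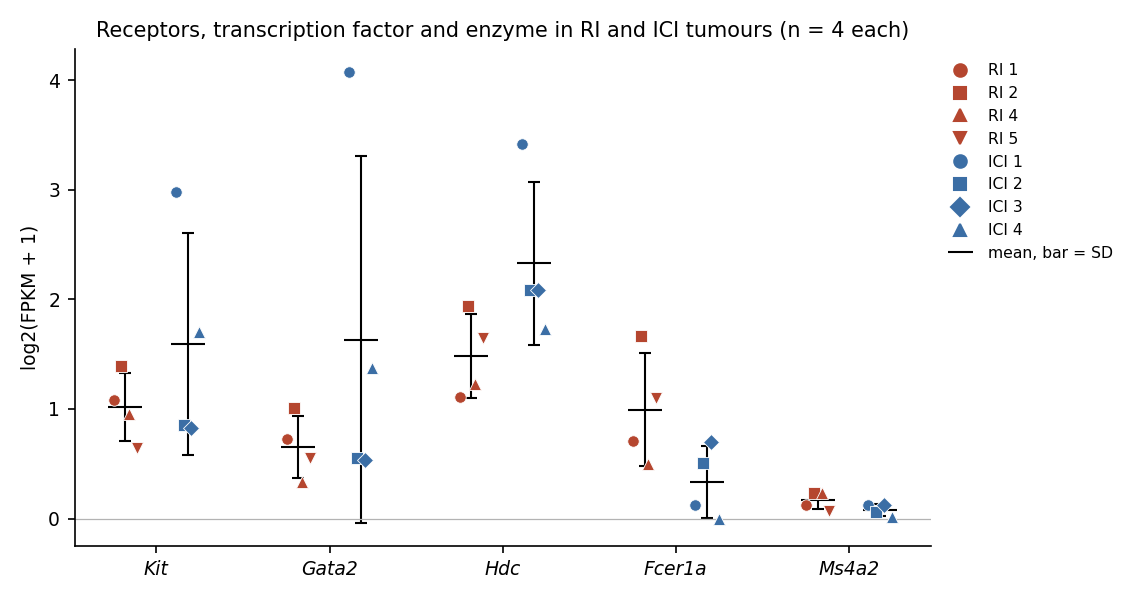
Level of the receptors, of Gata2 and of Hdc on the log2(FPKM + 1) axis, 1 point per tumour with RI left of ICI, the bar being the mean and its whiskers the SD (n = 4 each). ICI 1 is the highest point for Gata2 (15.9 FPKM), Hdc (9.67 FPKM) and Kit (6.92 FPKM), and Ms4a2 reaches at most 0.177 FPKM.

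Markers of other cells that use Kit, Gata2 or Hdc were set beside those values, and for neutrophil, endothelial, blood progenitor and melanocyte genes the highest sum was in ICI 1. The 12 neutrophil genes summed to 20.2 to 81.6 FPKM in RI and 215 to 22600 FPKM in ICI tumours, with ICI 1 highest, and of 9 tested 2 fell in limma, the calprotectin genes S100a9 (adjusted p = 0.038) and S100a8 (adjusted p = 0.0456). Both passed without ICI 1 or ICI 3 and missed without any other 1 tumour (ICI 2, ICI 4 or any RI tumour, adjusted p of at most 0.104). S100a8 and S100a9 also missed with TPM, no filter or the replicate block (limma, adjusted p of at most 0.26), and S100a8 with limma voom (adjusted p = 0.0712). The count called lower was 7 of 9 without ICI 1 (8.29% of all genes tested), 4 without ICI 3 (4.74%) and 0 without any other 1 tumour (0.692% to 3.91%). All 9 tested had a negative difference over the 8 tumours. Of 7 tested endothelial genes 0 were called by limma or by limma voom, with 1 at an unadjusted p under 0.05, and the 10 genes of that list summed to 27.0 to 70.8 FPKM in RI and to 412 FPKM in ICI 1, with 31.4 to 70 FPKM in ICI 2, 3 and 4. The 8 blood progenitor genes summed to 6.62 to 11.5 FPKM in RI and 6.46 to 24.5 FPKM in ICI tumours, with ICI 1 highest, and 0 of 2 tested were called, or had an unadjusted p under 0.05, by limma or limma voom. Of 5 melanocyte genes in the table the sum was 0.513 to 0.924 FPKM in RI and 0.206 to 3.44 FPKM in ICI tumours, and Tyrp1 and Mlana were at 0 in all RI tumours. The 1 dendritic cell gene tested, Itgax, had an adjusted p of 0.828 in limma. The part of these cells in the levels of Kit, Gata2 and Hdc was not tested.

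In RI tumours the members ranked by mean level per length as Tpsab1 (12.8 ± 8.13 FPKM), Tpsb2 (9.98 ± 6.7), Cma1 (6.04 ± 4.75), Mcpt4 (5.3 ± 4.23), Cpa3 (4.02 ± 1.73), Hdc (1.87 ± 0.768), Fcer1a (1.09 ± 0.788), Kit (1.06 ± 0.437), Gata2 (0.597 ± 0.32) and Ms4a2 (0.124 ± 0.0632; SD, n = 4). Neighbours among the first 5 differed by less than their SD. In ICI tumours Hdc (4.62 ± 3.4 FPKM), Gata2 (4.61 ± 7.56) and Kit (2.69 ± 2.9) stood beside Tpsab1 (2.84 ± 3.19; SD, n = 4) at the top, and none of these 4 differed beyond its SD. Tpsb2 averaged 1.28 ± 1.55 FPKM, Mcpt4 0.957 ± 1.31, Cpa3 0.831 ± 0.662 and Cma1 0.793 ± 0.873 in the same tumours.

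Other genes typical of mast cells were mostly too low to be tested. Of 20 such genes 19 were in the table, 7 were tested and 0 were called, with a median log2 difference of 0.01 against 0.01 over all genes tested, and 0 had an unadjusted p under 0.05. Limma voom on recovered fragments called 0 of them as well. The 4 with the smallest p were Srgn, the core protein of granule proteoglycans (41.2 FPKM in RI and 59.6 in ICI tumours), Ptgs1, a cyclooxygenase (16.1 and 12.4), Rab27b, which moves secretory granules (1.53 and 1.28), and Mitf, a transcription factor of mast cells and melanocytes (1.94 and 1.73), with adjusted p in limma of at least 0.506. All of these are used by many other cells. Srgn had 120 FPKM in ICI 1 and 34.4 to 42.2 FPKM in the remaining ICI tumours.

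Among the genes below the limit, Mrgprb1, a receptor of the Mas-related family found on connective tissue mast cells of the mouse, had 0.495, 0.854, 0.256 and 0.258 FPKM in RI 1, 2, 4 and 5, against 0, 0.0592, 0.0456 and 0 FPKM in ICI 1, 2, 3 and 4. The groups did not overlap, and RI 2 was again highest (log2 difference 0.50, exact permutation p = 0.0286). Tph1, which makes serotonin in mouse mast cells, likewise separated the groups at very low levels, 0.0266 to 0.156 FPKM in RI and 0 to 0.0221 FPKM in ICI tumours (exact permutation p = 0.0286). Mrgprb2, the mouse receptor for basic secretagogues, had 0.0535 to 0.254 FPKM in RI and 0 to 0.0597 FPKM in ICI tumours (exact permutation p = 0.0571). Adora3, an adenosine receptor, went the other way, with 0.0667 to 0.195 FPKM in RI and 0.212 to 1.31 FPKM in ICI tumours (exact permutation p = 0.0286). Mcpt1 and Mcpt2, proteases of mucosal mast cells, stayed low. Mcpt1 had 1.68, 0.399, 0.19 and 0.162 FPKM in RI 1, 2, 4 and 5, against 0, 0.22, 0.564 and 0.0232 FPKM in ICI 1, 2, 3 and 4 (exact permutation p = 0.343), and Mcpt2 had at most 0.615 FPKM in RI and 0.205 FPKM in ICI tumours (exact permutation p = 0.257). These p-values are not adjusted for the number of genes looked at.

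Basophils share Fcer1a, Ms4a2, Hdc, Gata2 and Cpa3 with mast cells, so their markers were set beside the members. Mcpt8, the basophil protease, had 1.93, 3.3, 1.13 and 2.75 FPKM in RI 1, 2, 4 and 5, against 1.37, 0.845, 1.12 and 0.4 FPKM in ICI 1, 2, 3 and 4. The groups overlapped, and the difference of 0.74 ± 0.26 (SE) on the log2 scale did not pass in limma (adjusted p = 0.0715). Prss34 was at 0 in all RI tumours and at most 0.647 FPKM in ICI tumours, and Cd200r3 at most 0.0935 FPKM in RI and 0.0254 in ICI tumours. Mcpt8 was called higher without ICI 1 (adjusted p = 0.0497) or RI 4 (0.0421), without both (0.02), with upper-quartile scaling (0.0496), median centring (0.0421) or quantile normalization (0.0344) and with the length trend removed (0.0237), all by limma. Of the 3 basophil genes tested 0 were called over the 8 tumours by limma or limma voom, 1 had an unadjusted p under 0.05, and Itga2 (adjusted p = 0.464) and Il3ra (adjusted p = 0.478) are shared with other cells. The summed basophil list was 8.13 to 16.2 FPKM in RI and 9.28 to 15.7 FPKM in ICI tumours. The 6 eosinophil genes in the table summed to at most 1.1 FPKM in RI and 8.84 in ICI tumours, and 0 of them were tested.

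The ligand of KIT was higher in RI tumours. Kitl, stem cell factor, had 18.4, 18.5, 18.5 and 25.9 FPKM in RI 1, 2, 4 and 5, against 9.46, 11.8, 11.1 and 10.8 FPKM in ICI 1, 2, 3 and 4. The groups did not overlap and the RI mean was 1.88 times the ICI mean. The log2 difference was 0.84 with a standard error of 0.15 (limma, adjusted p = 0.014), and it passed with any 1 tumour left out (adjusted p of at most 0.0492). It did not pass with values rescaled to TPM (adjusted p = 0.238) or with no filter on low values (adjusted p = 0.051). Nor did Kitl pass in limma with the replicate number as a block (adjusted p = 0.0991) or with the length trend also removed (adjusted p = 0.105). In those block fits 0.119% and 0.0225% of all genes were called higher. It was the 1 of 5 tested growth factor and cytokine genes to rise, and 0 fell. Il33, the alarmin read by the receptor ST2 of mast cells, had 4.95 ± 2.71 FPKM in RI and 1.75 ± 1.12 FPKM in ICI tumours (SD, n = 4 each) and did not pass (adjusted p = 0.124 by limma). It was called higher with TPM (adjusted p = 0.0429), without RI 4 (0.037) and without ICI 1 and RI 4 (0.0174). Tslp (adjusted p = 0.298) and Il4 (adjusted p = 0.78) did not pass either, and Il13 was at 0 in all tumours but 1.

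Signalling genes below the IgE receptor showed 1 rise among 12 tested and 0 falls, with a median log2 difference of 0.05 against 0.01 over all genes tested. Plcg2, a phospholipase of immune receptor signalling, had 30.2 ± 8.29 FPKM in RI and 16.7 ± 2.7 FPKM in ICI tumours (SD, n = 4 each; limma, adjusted p = 0.0296), and it did not pass without ICI 2, ICI 3, ICI 4, RI 1, RI 4 or RI 5 (adjusted p of at most 0.09). Without ICI 1 the count was 3, Plcg2, Lyn (adjusted p = 0.0158) and Gab2 (0.0332), where 11.7% of all genes were called higher. Without ICI 1 and RI 4 it was 4, with Inpp5d (0.0215), where 15.2% were, and with TPM it was 0, where 1.43% were. Fcer1g, the signalling chain that the IgE receptor shares with other Fc receptors, had 51.9 FPKM in RI and 93.2 FPKM in ICI tumours (adjusted p = 0.286 by limma). ICI 1 had 196 FPKM of Fcer1g and the remaining ICI tumours 49.6 to 68.8 FPKM, against 39.0 to 67.0 FPKM in RI tumours. The kinase Syk had 2.93 and 13.0 FPKM in the RI and ICI tumours (adjusted p = 0.332), with 41.7 FPKM in ICI 1, and the adaptor Gab2 had 3.51 and 2.89 FPKM (adjusted p = 0.383).

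Markers of skeletal muscle and fat, host tissues that can adjoin a tumour, were set beside the proteases. The 6 skeletal muscle genes summed to 256, 492, 541 and 102 FPKM in RI 1, 2, 4 and 5, against 5.6, 64.0, 229 and 1.88 FPKM in ICI 1, 2, 3 and 4. ICI 1 and ICI 4, which had almost no tryptase RNA, also had the least muscle RNA. Among the ICI tumours both sums fell in the same order, ICI 3, ICI 2, ICI 1 and ICI 4. Among the RI tumours both fell from RI 2 to RI 1 to RI 5. RI 4 differed, with the highest muscle sum and the lowest protease sum of the RI tumours, and ICI 3 exceeded RI 5 for muscle only. Of the 6 tested genes 2 rose, Ckm, muscle creatine kinase (18.9 FPKM in RI and 1.62 in ICI tumours, adjusted p = 0.0258 by limma), and Myh4, a fast myosin (29.0 and 2.39 FPKM, adjusted p = 0.049), and all 6 had a positive difference, with a median of 2.59 on the log2 scale. Ckm did not pass without ICI 1, ICI 4, RI 1, RI 2 or RI 4, and Myh4 without ICI 1, ICI 2, ICI 4, RI 1, RI 2 or RI 4 (adjusted p of at most 0.126). Without ICI 3, the ICI tumour with the highest muscle sum, 5 of the 6 were called, all but Mylpf, and limma voom called Ckm and Acta1. The 6 adipocyte genes summed to 3.93, 137, 4.42 and 12 FPKM in RI 1, 2, 4 and 5, against 5.16, 3.51, 9.33 and 3.07 FPKM in ICI 1, 2, 3 and 4. RI 2, the tumour with the most protease RNA, had the highest adipocyte sum. Of 2 tested adipocyte genes 0 were called by limma (0 at an unadjusted p under 0.05) or limma voom (1 at an unadjusted p under 0.05), and with TPM Plin4 was called (adjusted p = 0.0456). The part of adjoining host tissue in the protease levels was not tested.

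**Figure D4:**
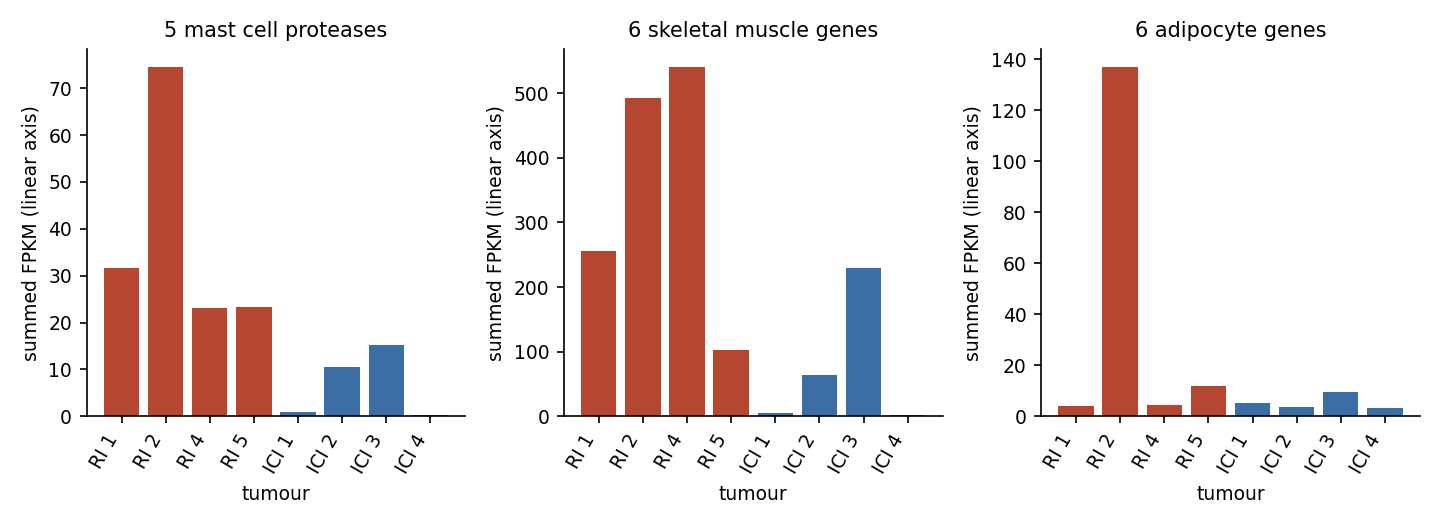
Summed FPKM per tumour on linear axes from 0 for the 5 proteases, 6 skeletal muscle genes and 6 adipocyte genes, RI tumours (red) left of ICI tumours (blue), 1 bar per tumour. RI 2 is highest for the proteases (74.6 FPKM) and for adipocyte genes (137 FPKM), RI 4 for muscle genes (541 FPKM), and ICI 1 and ICI 4 are lowest for proteases and muscle genes.

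Keratinocyte, macrophage and carcinoma markers give the rest of the setting. Keratinocyte genes summed to 1.28 to 4.13 FPKM in RI and 2.41 to 3.32 FPKM in ICI tumours, with Krt1 and Flg at 0 in all RI tumours, and of 2 tested Krt10 fell (0.638 FPKM in RI and 1.92 in ICI tumours, adjusted p = 0.0227 by limma). The other keratinocyte gene tested, Krt14, went the other way, with 1.96 FPKM in RI and 0.723 FPKM in ICI tumours (adjusted p = 0.106 by limma), and was called higher with the length trend removed (adjusted p = 0.0372). Of 6 macrophage genes 2 rose, Adgre1, which encodes F4/80 (7.68 FPKM in RI and 1.22 in ICI tumours, adjusted p = 0.00158 by limma), and the mannose receptor gene Mrc1 (26.5 and 7.68 FPKM, adjusted p = 0.0207). Krt10 missed without ICI 4 or RI 5 and Mrc1 without ICI 4 or RI 2 (adjusted p of at most 0.0682), while Adgre1 passed with any 1 tumour left out. Krt10 and Mrc1 also missed with no filter or with the replicate block, and Krt10 with TPM (limma, adjusted p of at most 0.186). Adgre1 missed with the replicate block and the length trend removed (limma, adjusted p = 0.0963). The other 4 macrophage genes did not pass, among them Itgam with 6.0 FPKM in RI and 19.9 FPKM in ICI tumours and Cd68 with 55.3 FPKM in RI and 60.6 FPKM in ICI tumours. Itgam had 53.0 FPKM in ICI 1 and 7.53 to 11.5 FPKM in the remaining ICI tumours. The epithelial keratins Krt8 and Krt18 averaged 510 and 408 FPKM in RI and 698 and 621 FPKM in ICI tumours, and of 4 tested carcinoma genes Cldn3 fell (12.9 FPKM in RI and 24.1 in ICI tumours, adjusted p = 0.0476 by limma), a call that held without ICI 3 and with no other 1 tumour left out (adjusted p of at most 0.12). Cldn3 also missed with TPM, no filter, the length trend removed, the replicate block or eBayes without trend and robust variance (limma, adjusted p of at most 0.379).

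The 8 genes outside the members whose pattern over the 8 tumours was most like that of the 5 proteases were Rspry1, Cbfb, Ptges3-ps, Zfp553, Exoc2, Gopc, Fv1 and Zeb2. Likeness was Pearson's r of log2(FPKM + 1) with the mean z-score of the proteases over the 8 tumours, and it ran from 0.975 to 0.991. With 8 tumours that share treatment, 576 of the 13439 genes tested had an r over 0.9, so high values were common. Of the 8 genes 1 was called, Ptges3-ps, with 84.7, 104, 64.7 and 56.7 FPKM in RI 1, 2, 4 and 5, against 22.8, 49.9, 54.3 and 23.8 FPKM in ICI 1, 2, 3 and 4 (limma, adjusted p = 0.0476). It passed without ICI 2 or ICI 3 and missed without ICI 1, ICI 4 or any 1 RI tumour (adjusted p of at most 0.126). Cbfb, a partner of RUNX transcription factors, had 25.8 to 32.9 FPKM in RI and 18.8 to 24.9 FPKM in ICI tumours (adjusted p = 0.088 by limma). The search covered only tested genes with a symbol and left out the members and gene models named Gm or Rik. No marker on the mast cell or muscle lists was among the 8 genes. Only 7 of the 19 other mast cell genes in the table could have appeared, so their absence is partly built in.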

How the data were processed

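RNA sequencing of 8 tumours was analysed, 4 RI and 4 ICI, grouped and numbered by their titles. The authors deposited FPKM for 32098 genes in 1 table. HISAT2 and GRCm38 (mm10) are named per the submitters' processing notes, while the sources used here do not name the counting program, annotation release, strand setting or filters. Of the gene rows 31407 matched GENCODE M21 (GRCm38) by identifier, which gave coordinates and union exon length. The worth of 1 fragment in each library was found from the steps between low values times exon length. Of values of up to 50 fragments 98.6% to 98.8% then lay within 0.05 of a whole number. Every pair of libraries differed by more than counting noise (lowest chi-square per gene 32.8).

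Tests covered the 13439 genes that reached 1 FPKM in 4 or more tumours, by limma 3.58.1 in R 4.3.3 on log2(FPKM + 1), a pseudocount of 1, with trend and robust variance, two-sided, with Benjamini-Hochberg adjustment over all of them. Every adjusted p is from limma. Single genes were also compared by an exact permutation test of the difference of mean log2(FPKM + 1), counting divisions at least as far from 0. The limma test was run on simulated data with independent normal noise and no library unlike its group. That run does not show how the test behaves with ICI 1 and RI 4. Members and the 15 other gene lists were chosen with earlier results of these data known. The rule for named genes was all members, the 4 tested genes with the smallest p of each other list, and the 8 genes most like the proteases. It was kept for the 4 lists closest to mast cells, and of the marker lists mainly the genes that passed are named. Other genes are given by level, and Mrgprb1, Mrgprb2, Tph1, Adora3, Mcpt1 and Mcpt2 were picked for the text after their values were seen. Other settings were no filter, a mean of at least 5 FPKM, pseudocounts of 0.1 and 5, TPM, upper-quartile, median and quantile scaling, eBayes without trend and robust variance, limma voom on recovered fragments, removal of the trend on exon length (lowess, span 0.3), a block for the replicate number, and leaving out each library. A fit without ICI 1 and RI 4 was added after the data were seen. Figures were drawn with matplotlib 3.10.9.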

Additional observations from a re-analysis of the deposited data

Results flagged for a closer look

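In groups of 4 tumours, 12 values stood apart from the others of their group by Dixon's test at 95%, out of 40 groups looked at. Chance flags about 1 in 20 where values are normally distributed. That rate need not hold for FPKM taken without a log, as here. RI 2 stood above the other RI tumours for Tpsb2 (20 FPKM), Tpsab1 (25.0 FPKM), Cma1 (13.1 FPKM), the sum of the 5 proteases (74.6 FPKM) and the sum of the adipocyte genes (137 FPKM). ICI 1 stood above the other ICI tumours for Gata2 (15.9 FPKM), Hdc (9.67 FPKM) and the sums of the neutrophil (22600 FPKM), endothelial (412 FPKM) and blood progenitor genes (24.5 FPKM). Kitl in RI 5 (25.9 FPKM) and Mcpt1 in RI 1 (1.68 FPKM) stood above the other RI tumours. These values are not independent, since 1 tumour gives several of them.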

How the results depend on the processing

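The 5 proteases were higher and Kit and Hdc lower in RI in every fit that tested them. Members called higher numbered 3, against 0 with no filter on low values, 1 with a mean of at least 5 FPKM (where only the tryptases were tested), 1 with a pseudocount of 0.1 FPKM, 3 or 4 with the other scalings and variance models, and 0 to 4 with 1 tumour left out. Genes of the other lists called higher numbered 6 (11.1%), against 1 with no filter (0.592%) and 2 to 8 with 1 tumour left out (1.81% to 11.7%). Those called lower numbered 4 (6.6% of all genes tested), against 0 with no filter (0.159%) or with TPM (0.655%). The count was 2 with a mean of at least 5 FPKM (9.94%) or with the length trend removed (9.47%). It was 8 without ICI 1 and RI 4 (7.88%) and 0 to 8 with 1 tumour left out (0.692% to 8.29%). The cause was not tested. With TPM the median log2 difference of all genes was 0.11, against 0.01 as reported. With the replicate number as a block 3 members were called (Tpsb2, Cma1 and Tpsab1, not Cpa3), where 0.119% of all genes were called higher. Of the other lists 3 genes were called higher and 0 lower. With the length trend also removed these counts were 1 (Tpsb2), 1 and 0, where 0.0225% of all genes were called higher. Numbers 3 and 5 each occur in 1 group only, so ICI 3 and RI 5 add nothing to the group difference in these block fits. Both fits rest on RI 1, 2 and 4 against ICI 1, 2 and 4. Same-numbered tumours did not deviate together (correlations of −0.0923, −0.12 and −0.124), and 0 of 6 correlated best with its own number. Only numbers 1, 2 and 4 occur in both groups, too few for this check to exclude a pairing or a shared batch. Signs turned, with no call before or after, for Il3ra without ICI 1 and RI 4 (0.20), for Il4 with TPM (0.00), with the length trend removed (0.16), with the replicate block and the length trend removed (0.25) and without ICI 3 or RI 4 (0.03 and 0.02; −0.20 to 0.03 over the tumours left out), for Srgn without ICI 1 (0.00; −0.60 to 0.00 over the tumours left out) and without ICI 1 and RI 4 (0.20), for Ptgs1 with the replicate block (−0.17) and with the length trend also removed (−0.22), for Rab27b with the length trend removed (−0.10) and with the block as well (−0.11), and for Mitf with the block (−0.01), the length trend removed (−0.04) and both (−0.16). Ms4a2 rested on few fragments, 23 in all ICI tumours, which limits the precision of its values.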
